A study of Mus musculus with 2 samples.

Results

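The cells described here are the 270 LBPXRS cells with the highest share of UMIs (unique molecular identifiers, 1 per captured RNA molecule) from the keratin genes Krt8 and Krt18. They are 10% of the 2705 LBPXRS cells that had at least 1000 detected genes and at most 10% of UMIs from mitochondrial genes, and part of 4488 such cells in the whole series. The name high fits only 6 of the 270. Of the others, 175 held a single Krt8 or Krt18 UMI, 78 held 2 and 11 held 3 or 4, so the group is called by its rule, the chosen cells, and no cell type name is given.

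The series profiled R1 cells, a line of mouse embryonic stem cells, by droplet single-cell RNA sequencing. Both cultures used N2B27 medium with LIF, which keeps such cells self-renewing through STAT3, and BMP4, a signalling protein of the TGF-beta family, and were taken at 72 hours. The LB culture received nothing more and stood on gelatin. The LBPXRS culture stood on fibronectin and also received PD0325901 (a MEK inhibitor, which blocks ERK signalling), Xav939 (a tankyrase inhibitor, which blocks WNT signalling), SB431542 (an inhibitor of the NODAL and activin receptors) and an agent that the labels spell Resorcyclic lactone, without its target. Each culture gave 1 library, so the effects of medium and of substrate cannot be told apart, differences between cultures have no replicate check, and cells of 1 library are not replicates of a condition. No p-value is given: intervals are exact 95% intervals for counting error only.

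Keratin 8, a type II keratin, and keratin 18, a type I keratin, pair to build the intermediate filaments of simple epithelia. They are the first keratins made in the mouse embryo, where the trophectoderm and the extraembryonic endoderm carry them, and undifferentiated embryonic stem cells hold little of either.

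The 2 genes are neighbours on chromosome 15 (RefSeq, GRCm38.p6): Krt8 runs on the minus strand from 101996711 to 102004342 and Krt18 on the plus strand from 102028216 to 102032026, with 23873 bases between their start sites. The 250 bases before each start site are shown because the rule adds up these 2 genes, which were detected together in 44 of the 270 chosen cells and in 6 of the 6 with at least 10 UMIs. Capitals mark matches to 5 motifs searched on both strands: for AP-1 the letters TGANTCA, for TEAD factors the letters GGAATG, for GATA factors the letters AGATAA, for SP1 the letters GGGCGG and for the TATA box the letters TATAAA. Krt8 is read from chr15:102004343-102004592, minus strand, and Krt18 from chr15:102027966-102028215, plus strand.
Krt8: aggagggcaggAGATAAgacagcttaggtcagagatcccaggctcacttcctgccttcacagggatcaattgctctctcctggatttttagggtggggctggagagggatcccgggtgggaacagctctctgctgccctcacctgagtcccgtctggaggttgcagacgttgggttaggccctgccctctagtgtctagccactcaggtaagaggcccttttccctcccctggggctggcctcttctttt
Krt18: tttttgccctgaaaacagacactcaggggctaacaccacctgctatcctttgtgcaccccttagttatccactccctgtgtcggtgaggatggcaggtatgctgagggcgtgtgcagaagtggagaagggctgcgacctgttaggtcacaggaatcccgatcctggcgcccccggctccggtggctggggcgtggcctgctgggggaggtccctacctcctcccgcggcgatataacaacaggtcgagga
A single match was found, to the GATA motif in the Krt8 window, 239 bases before the start site. That motif occurs in 9.99% of 32851 promoters of the same length, against 6.75% for AP-1, 12.6% for TEAD, 32.7% for SP1 and 12.4% for the TATA box. A match is a run of letters and not evidence of binding.

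Medians of depth and quality were close between the groups. The upper quartile of UMIs was 20374 in the chosen cells and 23106 in the others. The chosen cells held a median of 18157 UMIs and 3718 genes, against 19243 UMIs and 3811 genes in the 2435 other cells, and the median mitochondrial share was 2.34% against 2.56%. A mitochondrial share below 0.5% occurred in 27 chosen cells (10.0%) and in 141 others (5.79%). Pou5f1, a core pluripotency factor, had a UMI in 2688 of the 2699 cells other than the 6. The 2 libraries shared 10 barcodes as deposited and 8 after the filters, among them 1 chosen cell that was not one of the 6 above. Scrublet, a doublet caller, marked 10 LBPXRS cells, none of them among those 6. Since this is under 0.5% of the cells, the caller may have missed doublets.

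Krt8 and Krt18 were scarce in LBPXRS. No UMI of either was seen in 2260 of the 2705 cells (83.5%), and these cells held 1334 of them in all. The chosen cells held 1159, at 234 CPM (UMIs of a gene per 1000000 summed UMIs), against 3.73 CPM in the other cells, which is the rule itself and no finding. The last cell inside the rule had a share of 0.00489% and the first outside it 0.00488%, each from 1 UMI. Of the 350 cells with exactly 1 UMI, 175 were chosen, with at most 20467 UMIs in total, and 175 were not, with at least 20496. For these cells the choice was therefore made by depth alone.

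**Figure D1:**
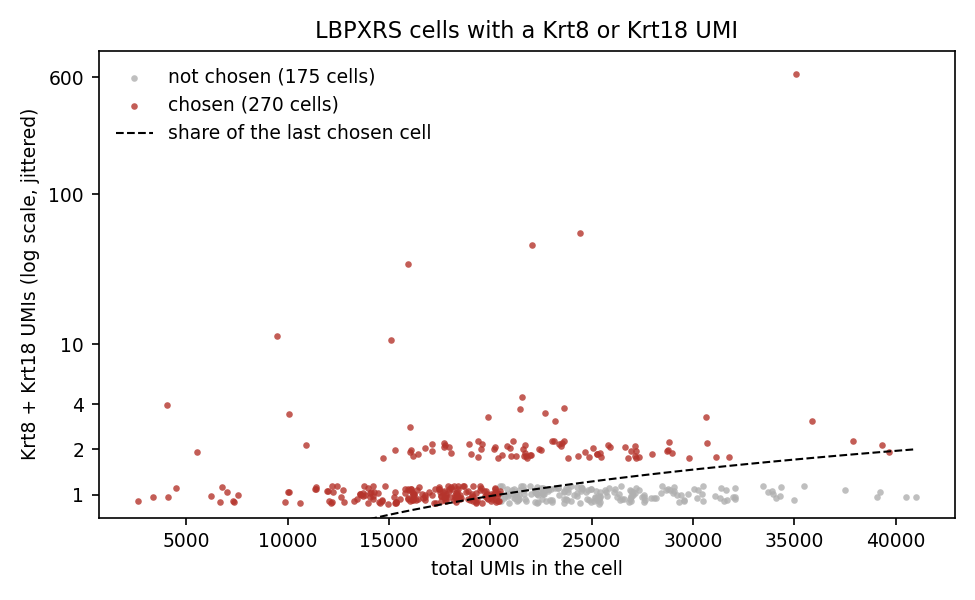
Krt8 + Krt18 UMIs (log scale, jittered vertically) against total UMIs for the 445 LBPXRS cells with at least 1 such UMI, chosen cells in red and the others in grey. Among cells with 1 UMI the 175 chosen ones lie to the left of the dashed line, which marks the share of the last chosen cell, and 6 cells stand apart at 10 UMIs or more.

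The keratin RNA was concentrated in very few cells. The 6 cells with at least 10 UMIs held 790 of the 1159 (68.2%) and 59.2% of those in the 2705 cells, while holding 2.47% of the chosen cells' UMIs. Named A to F, they carried 629, 63, 46, 30, 12 and 10 Krt8 and Krt18 UMIs. Cell A alone held 54.3% of the chosen cells' keratin UMIs. Without A to F the chosen cells stood at 76.4 CPM. No other of the 2705 cells held more than 4.

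To see whether the remaining chosen cells stood out in molecules that had not chosen them, each UMI was put at random into 1 of 2 equal portions, and cells were chosen on the first portion and read in the second. Without A to F, the 244 cells chosen in this way had 21.3 CPM (16.1 to 27.7) in the unused portion, and the cells not chosen had 9.51 CPM (8.30 to 10.9). A keratin UMI was seen in the unused portion in 19.7% of these cells (14.9% to 25.2%) and in 7.94% of the others (6.90% to 9.08%). The intervals did not overlap, nor did they with the portions exchanged or with a second random split, where the levels lay at 20.4, 20.1 and 21.1 CPM against 9.20, 8.72 and 10.1 CPM. Most cells chosen on 1 portion showed no keratin UMI in the other. The level of free RNA in empty droplets was not analysed here, and no LBPXRS cell class was known to lack both keratins.

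Against the other LBPXRS cells, the chosen cells were higher by 2-fold or more in 18 of 6984 genes (0.258%) and lower by as much in 1 (0.0143%), with Krt8 and Krt18 left out and at least 10 CPM in either group. The genes higher were Krt19, Sct, Anxa2, Lgals3, Ccn2, Tinagl1, Cdkn1c, Rhox9, Bhlhe41, Lamb1, Prss8, Serpinh1, Zyx, Cryab, Vps37b, Lama1, Lmna and Ogfrl1, and the gene lower was Ptcra. Krt19, Anxa2, Lgals3, Ccn2, Lamb1, Lama1, Serpinh1, Zyx and Sct belong to the gene lists or to the genes named by rule, and the others are named after their values were seen, because they complete the count. Of the 18, 15 reached 10 CPM only in the chosen cells and so could enter the count only by being higher there. For 12 of the 18, more than 50% of the chosen cells' UMIs came from cells A to F. Without those 6 cells, 2 of 6934 genes were higher (0.0288%), Lgals3 and Bhlhe41, and both were among the 18. Both reached 10 CPM only in the chosen cells. With the 10 CPM asked of all filtered cells other than the 6, 0 of 6718 genes were higher. Anxa2 still had a log2 ratio of 1.30 (plain ratio 2.149 to 6.497) but fell under the 10 CPM minimum, at 4.14 CPM, and for 8 of the 18 the counting interval of the plain ratio stayed above 1. Rhox9 went to 0.10, and in the cells with 2 to 9 keratin UMIs it was among the genes lower, at 4.46 against 10.7 CPM in cells with none. The calls of Lgals3 and Bhlhe41 each rested on 1 cell, with 15 of 88 Lgals3 UMIs and 13 of 68 Bhlhe41 UMIs, and without that cell the log2 ratios were 0.83 and 0.90. Ptcra, which reached 10 CPM only in the other cells, was again the 1 gene lower (0.0144%). In all, 99.0% of the genes lay within 1.5-fold, and the median log2 ratio was 0.0019.

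**Figure D2:**
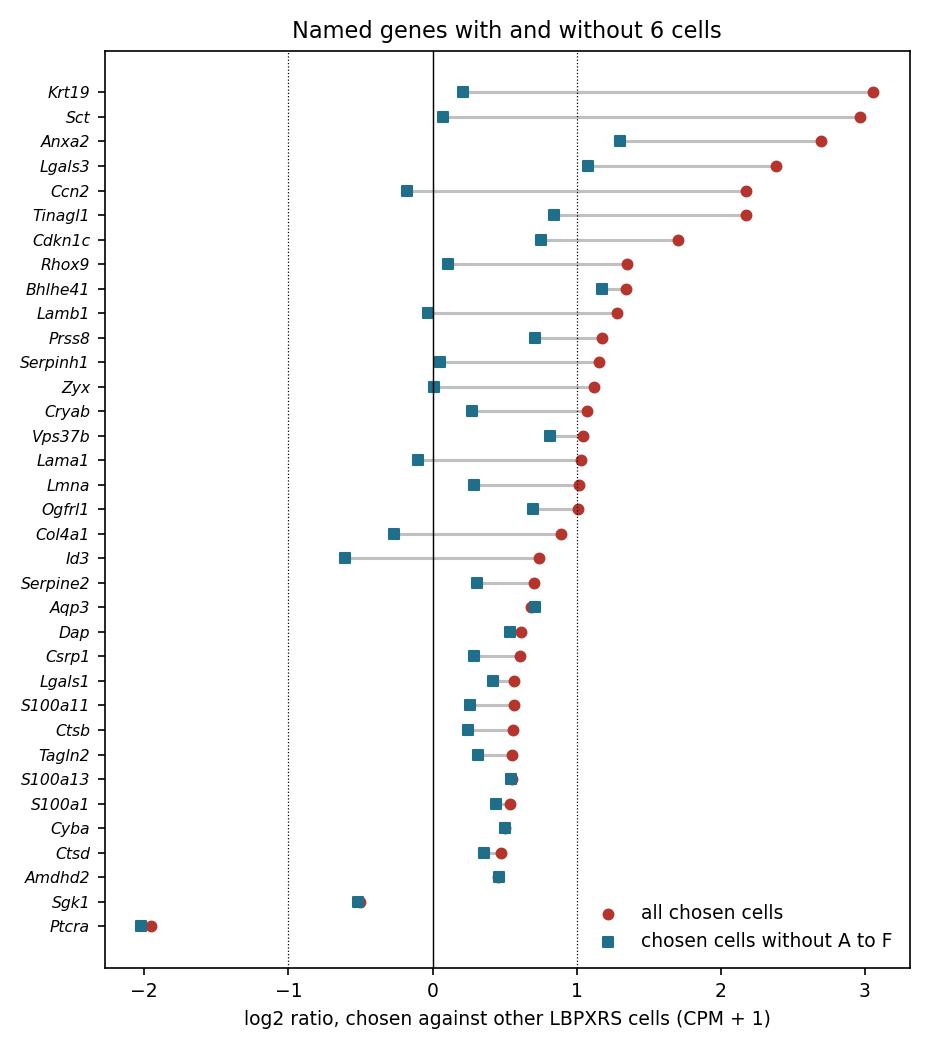
Log2 ratio of CPM + 1 in the chosen cells against the other LBPXRS cells, 1 row per gene, with all 270 chosen cells (red circles) and with those left without cells A to F (blue squares); dotted lines mark 2-fold. Krt19 moves from 3.06 to 0.21 and Ccn2 from 2.18 to -0.18, while Aqp3 stays at 0.68 and 0.71.

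The 3 other genes by which these cells had been described did not mark the group. Ccn2, a secreted matrix-associated protein and target of YAP and TEAD, stood at 29.5 CPM in the chosen cells and 5.74 CPM in the others (log2 ratio 2.18, counting interval of the plain ratio 4.17 to 6.31). Of its 146 UMIs, 83 lay in cell D and 38 in cell F, and without A to F it stood at 4.97 CPM (log2 ratio -0.18, plain ratio 0.545 to 1.32). Its higher level was thus that of 2 cells.

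Id3, an inhibitor of basic helix-loop-helix factors that BMP signalling induces, was at 10.5 CPM against 5.89 CPM (log2 ratio 0.74). Of its 52 UMIs, 35 came from A to F, with 19 in cell A, 5 each in C and F, 4 in E, 2 in D and 0 in B. Without these cells it stood at 3.52 CPM in the chosen group (log2 ratio -0.61, plain ratio 0.343 to 0.975). The cell richest in Id3 was not a chosen cell: it held 54 of the 276 Id3 UMIs of the others beside 1 keratin UMI. Without it as well, the others stood at 4.74 CPM and the log2 ratio was -0.34, with a plain ratio of 0.425 to 1.22, so the lower level rested on that cell. With A to F kept and that cell left out, the log2 ratio was 1.00 (plain ratio 1.61 to 3.01), at the 2-fold line. Serpine2, a secreted inhibitor of serine proteases, stood at 29.5 CPM against 17.7 CPM (log2 ratio 0.70), with 38 of its 146 UMIs in cell A, and at 22.1 CPM without A to F (log2 ratio 0.31, plain ratio 1.01 to 1.53). Without cell A alone the log2 ratio was 0.16 for Id3 and 0.30 for Serpine2.

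The 6 cells differed from each other as well as from the rest. Cell A, the deepest of them with 35060 UMIs and a mitochondrial share of 0.354%, held 296 Krt8 and 333 Krt18 UMIs. It held 322 UMIs of Sct, which encodes the hormone secretin, where no other filtered cell outside A to F had more than 5. It also held 53 UMIs of Krt19, a further keratin of simple epithelia, 100 of Lgals3 (galectin-3), 83 of the homeobox gene Rhox9 and 61 of Cdkn1c, an inhibitor of the cell cycle. Gata2, a zinc-finger transcription factor, gave 10 UMIs and Actg1, a cytoplasmic actin, 402. Pou5f1, the core pluripotency factor with a median of 18 UMIs in the remaining cells, had 0.

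From the trophoblast list, 7 of 20 genes had a UMI in cell A, with 144 UMIs where the level of cells without keratin UMIs would give 9.62 at its depth. Lgals3 made up most of them, Phlda2 and Peg10, both imprinted genes active in the placenta, gave 14 and 12, and Tfap2c gave 6. The defining trophoblast factors Cdx2, Elf5, Eomes and Hand1 were at 0 in cell A, as in B to F. The naive pluripotency list gave 3 UMIs in cell A where 113 would be expected at that level. The SRF and actin list gave 1289 UMIs against 127. Only single cells stand behind these values.

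Cells D, E and F resembled each other in the genes of the basement membrane. The 2 chains of type IV collagen gave 71, 19 and 81 UMIs for Col4a1 and 32, 29 and 62 for Col4a2. Serpinh1, the collagen chaperone, gave 88, 49 and 87. The laminin gene Lamb1 gave 20, 11 and 24 UMIs, Lama1 21, 7 and 19, and Lamc1 20, 18 and 38. No remaining cell outside A to F held more than 7 Col4a1 UMIs or 9 of Serpinh1. Summed over Col4a1, Col4a2, Lama1, Lamb1 and Lamc1, genes picked because they were high in these 3 cells, the share of UMIs was 1.48% in F, 1.03% in D and 0.884% in E. That they rank first on this sum follows from the choice of genes, and no other of the 2705 cells had more than 0.117%.

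The same 3 cells carried transcription factors and a receptor known from primitive and parietal endoderm, at low counts. Gata6 gave 1, 0 and 5 UMIs in D, E and F, Sox17 gave 1, 0 and 4, Foxa2 1, 1 and 3, and the endocytic adaptor Dab2 2, 1 and 8. Pth1r, the parathyroid hormone receptor, which was chosen after its values were seen, gave 5, 3 and 26. Of the 24 primitive endoderm genes, 13, 12 and 16 had a UMI. Pou5f1 gave 1, 0 and 1, and Nanog and Sox2 gave 0 in each of the 3. Gata6, Sox17, Foxa2, Dab2 and Pth1r were at a median of 0 in the remaining cells.

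Cell B shared some genes with cell A, and cell C stood apart from both patterns. In cell B the trophoblast list gave 46 UMIs where 6.70 would be expected from cells without keratin UMIs. Of the 46, 40 were of Lgals3 alone, where 0.196 would be expected. The SRF and actin list gave 205 against 88.3 and the naive pluripotency list 31 against 79.0. The primitive endoderm list gave 120 against 42.6, but 67 of these UMIs were of Apoe and 46 of Sparc, which 2659 and 2637 of the remaining cells also held, while Gata6, Gata4, Sox17, Foxa2, Dab2, Col4a1 and Col4a2 were at 0. Cell B held 40 Lgals3 UMIs and 24 of S100a6, a calcium-binding protein, with 27 Pou5f1 UMIs but 0 of Nanog, Zfp42 and Sox2. Cell C held 18 UMIs of Id1, a further BMP-induced inhibitor, and UMIs of each of 5 pluripotency genes: 14 of Pou5f1, 20 of Zfp42, 6 of Nanog, 4 of Sox2 and 25 of Klf2, against medians of 18, 9, 3, 4 and 5 in the remaining cells. Zfp42 and Klf2 were above the 90th percentile of those cells, 19 and 13. Its 46 keratin UMIs thus stood beside RNA of all 5 genes, whereas cells A, D, E and F had at most 2 UMIs of each of these 5 genes. Klf5, also in the naive pluripotency list, went otherwise, with 11 UMIs in cell D and 1 in cell C. Its median in the remaining cells was 3 and its 90th percentile 7. Fibroblast and feeder genes were at 0 in all 6 cells.

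**Figure D3:**
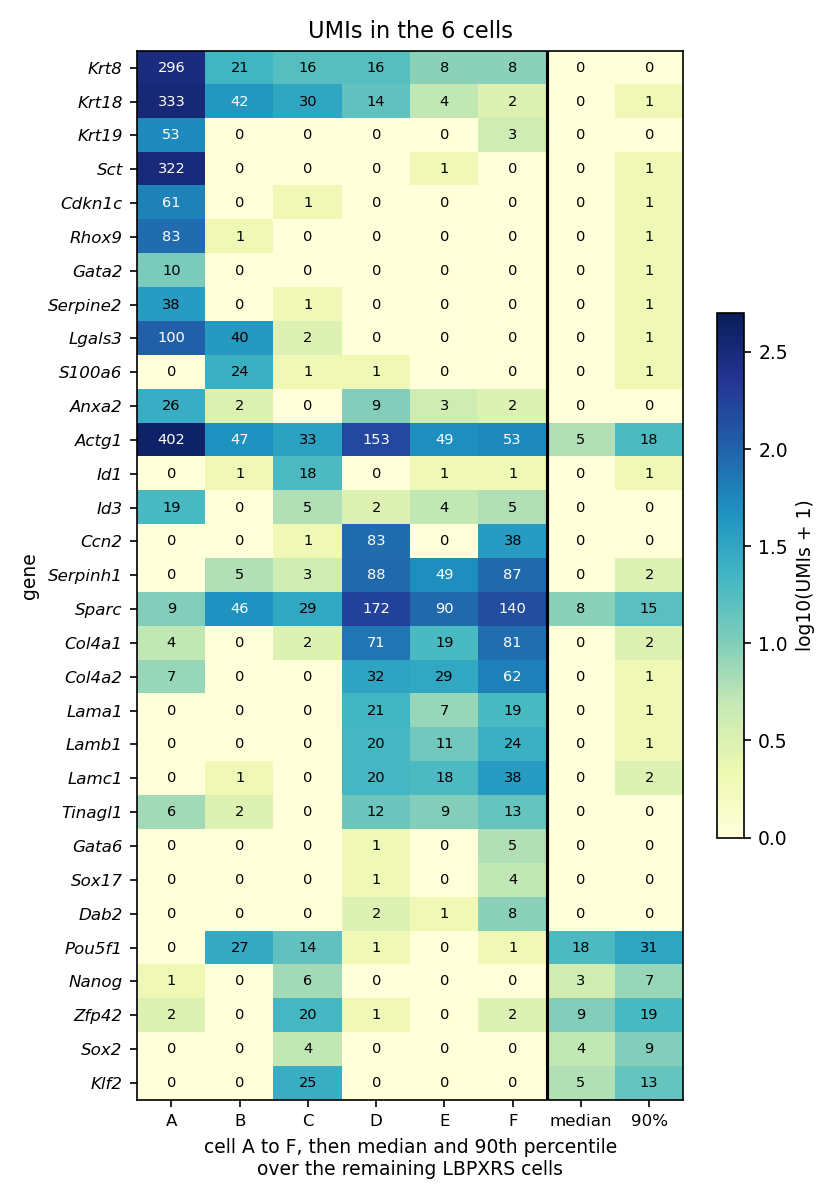
UMIs per gene (printed, with colour on a log10 scale) in the 6 LBPXRS cells with at least 10 Krt8 + Krt18 UMIs, with the median and 90th percentile over the 2699 remaining LBPXRS cells on the right. Sct and Krt19 stand out in cell A, collagen and laminin genes in D, E and F, and pluripotency genes are present in cell C.

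When the library was clustered on all genes, A to F fell in 1 cluster of 882 cells, of which 84 were chosen cells (9.52%, 7.67% to 11.7%). With Krt8 and Krt18 left out of the clustering, A, B, D, E and F fell in a cluster of 898 and C in another of 274. Chosen cells were found in every cluster of both clusterings. A cluster led by Gata2, Dusp4, Slc26a11, Trpm1 and Aqp3 held none of the 6, and 97 of its 667 cells were chosen (14.5%, 12.0% to 17.5%). The next highest share, 41 of 380 cells (10.8%, 7.85% to 14.4%), was in a cluster led by Chac1 and Trib3, with an overlapping interval. With the keratins left out, the corresponding shares were 88 of 618 cells (14.2%) and 52 of 463 (11.2%).

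Gene lists gave small shifts outside the 6 cells. Of 26 lists, 24 had a gene at the required level, and 5 held a gene at least 2-fold higher. Over all genes that share was 18 of 6984 (0.258%). The 5 lists were primitive endoderm (Serpinh1, Lama1 and Lamb1, 3 of 10 genes, median log2 ratio 0.66), SRF and actin (Zyx and Anxa2, 2 of 22, median 0.18), simple epithelial keratins and junctions (Krt19, 1 of 16, median 0.24), trophoblast (Lgals3, 1 of 6, median 0.24) and YAP and TEAD targets (Ccn2, 1 of 10, median 0.05). With the 10 CPM asked of all filtered cells together, primitive endoderm had Serpinh1 alone of 8 genes with a median of 0.34, trophoblast had Lgals3, and the other 3 lists had no gene called. Without A to F, at 10 CPM in either group, only the trophoblast list held such a gene, Lgals3 again, and the primitive endoderm median was -0.14. Lgals3 reached that level only in the chosen cells. With the 10 CPM asked of all filtered cells other than A to F, 0 of 6718 genes were higher, so no list held one. With all chosen cells, the 19 lists without a call had medians from -0.18 to 0.25, beside 0.0019 over all genes.

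BMP targets, of interest because both media held BMP4, had a median of 0.04 over 7 genes, none of them called. Naive pluripotency genes had a median of -0.18 over 14 genes, with 4 above 0 and none called, and -0.16 without A to F. All 15 lysosomal genes, which encode enzymes and membrane proteins of the degradative compartment, were above 0 with a median of 0.25, again with none called, and 0.19 without A to F. Markers of fibroblasts and feeders summed to 45 UMIs in the chosen cells, 9.09 CPM against 6.38 CPM in the others.

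Genes of the G2 and M phases differed in direction with the cells compared. In the chosen cells 2 of 24 were above 0 and the median was -0.11. In all 350 cells with 1 keratin UMI set against the cells with none, 21 of 24 were above 0 and the median was 0.12. The 175 chosen of these cells had a median of 16982 UMIs and the 175 not chosen 25141. With the choice made within 5 equal groups of depth the median was -0.06, and with all 445 cells that held a keratin UMI it was 0.12. Cells with 2 to 9 keratin UMIs against cells with none also gave 0.12, with 16 of 24 above 0. Each positive median was set against cells with none, and each negative one against all cells not chosen, so 2 choices changed at once.

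Levels were then followed by keratin UMIs per cell, setting the 2260 cells with none beside the 350 with 1 and the 89 with 2 to 9, and keeping A to F apart. At 2 to 9 UMIs, 13 of 6977 genes were at least 2-fold higher than in cells with none (0.186%) and 33 at least 2-fold lower (0.473%). The 13 were Dusp4, Bhlhe41, Ripply3, Lgals3, Retn, Pmaip1, Gata2, Gstt2, Ankrd33b, Trpm1, Aif1l, Aqp3 and Krt7. Gata2, Lgals3, Dusp4, Krt7 and Pmaip1 belong to the gene lists and Aqp3 to the genes named by rule, and the others were chosen after their values were seen. Of the 13, 7 reached 10 CPM only in the cells with 2 to 9 UMIs, and of the 33, 26 reached it only in the cells with none. With the 10 CPM asked of all filtered cells together, 7 genes were higher and 33 lower, of 6724. Among the 33 lower, the furthest down was Ptcra, at 0.496 against 11.8 CPM, and the homeobox genes Rhox6 and Rhox9 were at 3.96 against 12.0 and 4.46 against 10.7 CPM, all 3 named after their values were seen. Without the single richest cell for each gene 5 of the 13 stayed at 2-fold: Dusp4, Ripply3, Gstt2, Gata2 and Ankrd33b. The 33 lower genes were not read without their richest cells. Among the 2260 cells with none, Ptcra lay in 139 and Rhox9 in 240, each with up to 28 UMIs in 1 cell.

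Gata2 was just under the 2-fold line over all chosen cells, at 49.3 against 24.4 CPM (log2 ratio 0.98, and 0.96 without A to F). It stood at 23.9 CPM (22.5 to 25.4) in cells with no keratin UMI, 34.5 CPM (30.4 to 39.0) with 1 and 55.0 CPM (45.2 to 66.2) with 2 to 9. In the 11 cells with 3 or 4 it was 148 CPM, from 34 UMIs in 5 of the cells. The intervals of the first 3 classes did not overlap, but they cover counting error only. At 2 to 9 the 111 Gata2 UMIs lay in 26 of 89 cells. With each cell thinned at random to 5000 UMIs, a Gata2 UMI was found in 7.47% (6.40% to 8.66%) of cells with none. The share was 10.7% (7.64% to 14.4%) with 1 and 20.5% (12.6% to 30.4%) with 2 to 9. Before thinning the shares were 16.5%, 21.4% and 29.2%. The thinned interval with 1 overlapped both others, while those with none and with 2 to 9 lay apart. In each of 5 equal groups of cells by depth Gata2 was higher in cells with 1 to 9 UMIs than in cells with none: 38.5 against 30.7 CPM in the lowest, then 65.7 against 24.5, 43.0 against 20.03, 40.9 against 22.8 and 28.8 against 24.5. In the lowest and the highest group the 2 intervals overlapped.

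Aqp3, a channel for water and glycerol, stood at 54.0 CPM (51.9 to 56.3) with no keratin UMI, 57.6 CPM (52.3 to 63.4) with 1 and 110.5 CPM (96.5 to 126) with 2 to 9. In CPM the interval of the class with 2 to 9 lay apart from the other 2, but 22 of its 223 UMIs came from 1 cell, without which the log2 ratio to cells with none was 0.89 instead of 1.02. After thinning, 18.5% (16.9% to 20.2%), 21.97% (17.7% to 26.7%) and 27.3% (18.3% to 37.8%) of cells held a UMI of it, with overlapping intervals. By depth, cells with 2 to 9 were above cells with none in all 5 groups: 131 against 98.7 CPM in the lowest, from 4 cells, then 71.0 against 56.3, 212 against 47.5, 135 against 39.0 and 74.0 against 50.8. In the lowest 2 groups the intervals overlapped. Cells with 1 UMI were below cells with none in the lowest and the highest group and above them in the others.

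Dusp4, a phosphatase that switches off MAP kinases, went from 11.03 CPM with none to 13.3 CPM with 1 and 38.7 CPM (30.6 to 48.2) with 2 to 9, where 28 of 89 cells held it. After thinning, the share of cells with a Dusp4 UMI was 4.54% (3.704% to 5.499%), 2.89% (1.39% to 5.25%) and 15.9% (8.98% to 25.3%), so the class with 2 to 9 lay apart and the class with 1 was not above cells with none. Among cells with none, Dusp4 went from 7.44 CPM in the lowest group by depth to 16.5 CPM in the highest. Lgals3 went from 8.01 to 11.7 and 21.3 CPM (15.4 to 28.7), with 15 of its 43 UMIs in the last class in 1 cell, and 14.0 CPM without it. After thinning, Lgals3 was found in 4.86% (3.996% to 5.848%) of cells with none, 4.62% with 1 and 10.2% (4.78% to 18.5%) with 2 to 9, with overlapping intervals. By depth its interval at 2 to 9 UMIs lay above that of cells with none in the second-lowest of the 5 groups alone, and its level was below theirs in the second-highest, at 8.04 against 9.36 CPM. Krt7, another keratin of simple epithelia, went from 6.59 to 7.48 and 14.4 CPM, with 10 of its 29 UMIs in 1 cell and 9.49 CPM without it. After thinning, Krt7 was found in 2.43% (1.83% to 3.17%) of cells with none and in 4.55% (1.25% to 11.2%) with 2 to 9. Retn, which encodes the hormone resistin, went from 15.7 to 8.15 and 38.2 CPM, but its 77 UMIs came from 9 cells, 20 of them from 1.

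Several pluripotency genes ran the other way. Zfp42, a marker of naive cells, stood at 527 CPM with no keratin UMI, 491 CPM with 1 and 368 CPM (342 to 395) with 2 to 9, and a UMI remained after thinning in 86.2%, 88.2% and 76.1% of cells. Sox2 went from 239 to 214 and 163 CPM (146 to 182), and Klf4 from 218 to 202 and 146 CPM (130 to 163). Nanog was 178, 181 and 141 CPM (125 to 158), but after thinning the share of cells with a UMI was 54.4% (52.3% to 56.5%), 52.9% and 52.3% (41.4% to 63.0%), with overlapping intervals. Pou5f1 did not follow them, at 992, 991 and 985 CPM (942 to 1029). None of these reached 2-fold at 2 to 9 UMIs. In the 11 cells with 3 or 4, Klf4 was at 82.9 CPM (49.9 to 130) and Sox2 at 105 CPM (67.1 to 156), both less than 50% of the level in cells with none.

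**Figure D4:**
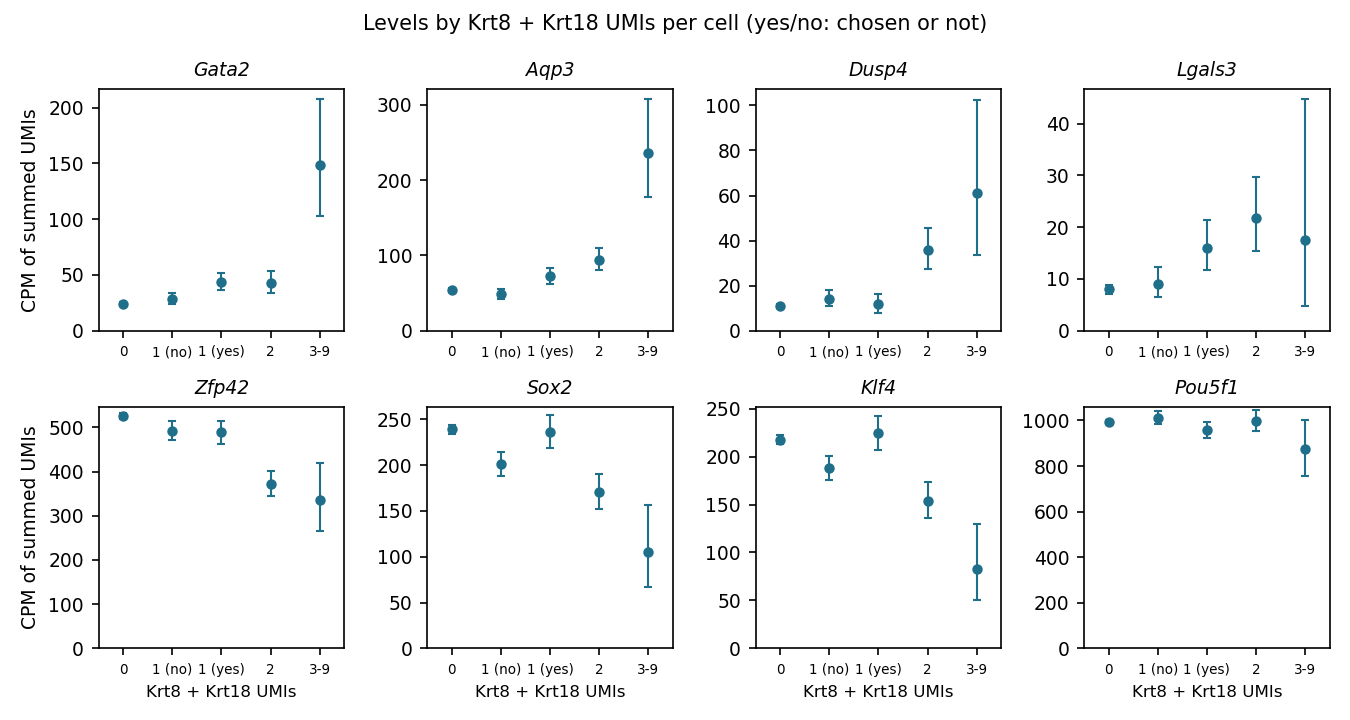
CPM of summed UMIs, each panel 1 gene from a baseline of 0, in LBPXRS cells grouped by Krt8 + Krt18 UMIs (0, 1 and not chosen, 1 and chosen, 2, and 3 to 9), with exact 95% counting intervals; cells A to F are left out. Gata2, Aqp3 and Dusp4 are highest at 3 to 9 UMIs and Zfp42, Sox2 and Klf4 lowest, from 11 cells, while Pou5f1 stays between 873 and 1012 CPM.

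The 270 LBPXRS cells with the highest share of Gata2 and Aqp3 included 50 of the 270 chosen cells. That is 18.5% of each list, where each list is 9.98% of the filtered cells. The pair was picked because both genes were higher in cells with keratin UMIs, so the size of the overlap restates that choice and is no further finding. Of the 270 cells rich in Gata2 and Aqp3, 202 (74.8%) held no keratin UMI, a lower share than the 83.5% over all filtered cells.

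In LB the same 2 genes were of another order. Krt8 stood at 188 CPM in LB and 10.4 CPM in LBPXRS, and Krt18 at 184 and 15.3 CPM. At least 10 keratin UMIs were found in 293 of 1783 LB cells (16.4%, 14.7% to 18.2%) and in 6 of 2705 LBPXRS cells (0.222%, 0.0814% to 0.482%). LB was the deeper library, with a median of 25418 UMIs per cell against 19058, but with each cell thinned to 5000 UMIs the share with a keratin UMI was 37.6% in LB and 5.72% in LBPXRS, against 66.6% and 16.5% before. The same rule applied to LB took 178 cells with a median of 39 keratin UMIs and a lowest share of 0.0776%, which 6 LBPXRS cells reached, A to E and 1 cell with 4 keratin UMIs.

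**Figure D5:**
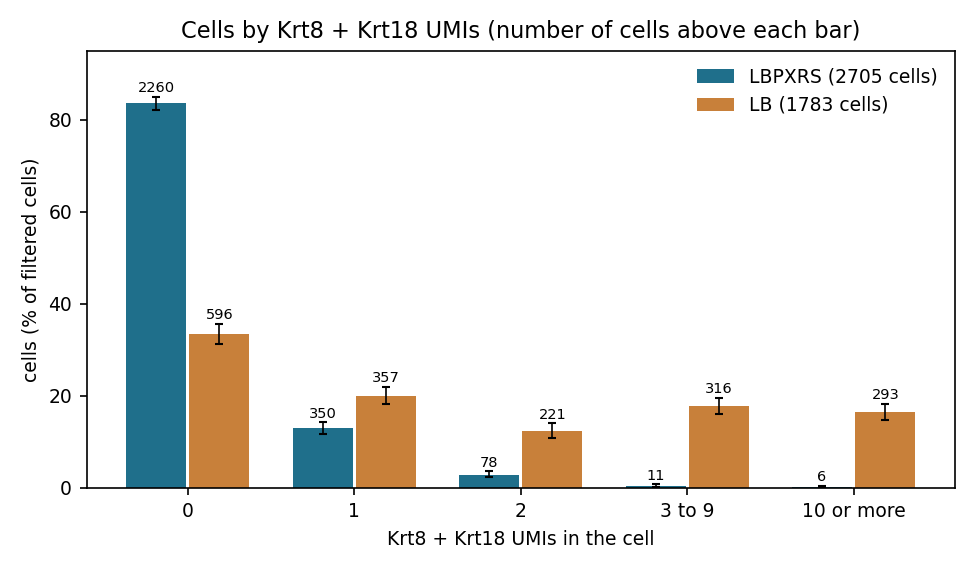
Share of filtered cells (percent, axis from 0) by Krt8 + Krt18 UMIs per cell in LBPXRS and LB, 1 library each, with exact 95% binomial intervals and the number of cells above each bar. In LBPXRS 2260 of 2705 cells have none and 6 have 10 or more, against 596 and 293 of 1783 in LB.

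Set beside the other LB cells, these 178 had 609 of 7704 genes at least 2-fold higher (7.90%) and 333 lower (4.32%), where the LBPXRS rule gave 18 and 1 of 6984. Of the 609, 310 reached 10 CPM only in the 178 cells, and of the 333, 215 only in the other LB cells. In LB 10 of 12 trophoblast genes were called higher, with a median log2 ratio of 2.28, and 11 of 14 naive pluripotency genes lower, with a median of -2.47. In the chosen LBPXRS cells those medians were 0.24 and -0.18. Krt19 was higher in both (3.96 in LB, 3.06 in LBPXRS, but 0.21 without A to F). Id3 was 1.07 in LB, Ccn2 0.78 and Serpine2 -0.19. Gata2 was 7.32 against 1.01 CPM in LB (log2 ratio 2.05), and Aqp3 3.45 against 2.79 CPM (0.23). The difference between the 2 cultures was not tested, with 1 library each.

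The 406 LBPXRS barcodes left out by the filters held 11 keratin UMIs of 728325, 15.1 CPM (7.54 to 27.0), spread over 9 barcodes with at most 3 in 1. The kept cells without A to F stood at 10.5 CPM (9.65 to 11.4), within that interval. In LB the left-out barcodes held 316 keratin UMIs, 427 CPM (381 to 477).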

How the data were processed

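The study measured 3′ RNA counts in single cells with 10x Genomics version 2 chemistry, per the labels' protocols. The authors deposited UMI counts per gene and barcode, made with Cell Ranger 4.0.0 on build mm10 per the submitters' processing notes, and the annotation and cell-calling settings are not given in the sources used here. Barcodes with under 1000 genes or over 10% mitochondrial UMIs were left out (406 of 3111 in LBPXRS, 225 of 2008 in LB). Kept cells summed to 51832444 UMIs in LBPXRS and 45490517 in LB.

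Counts were summed over cells, scaled to CPM and compared as log2((CPM + 1)/(CPM + 1)), a pseudocount of 1 that understates the differences of low genes. Genes at 10 CPM or more in either group were called at 2-fold by size alone, without a test. Exact Poisson and binomial (Clopper-Pearson) intervals at 95% cover counting error only. Counts were simulated for the chosen cells against the others with counting error as the only spread, changing genes at 10 CPM or more overall. This recovered 50 of 50 genes raised 4-fold and 50 of 50 lowered 4-fold, and called 0 of 6706 unchanged genes. Spread between cells was not simulated, so this cannot tell how often genes carried by few cells are called. At 1.5-fold, under the threshold, it called 0 of 50 raised and 2 of 50 lowered genes.

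The members, gene lists, tests and alternatives were chosen with earlier results of these data known. Genes named by rule were Krt8, Krt18, Id3, Serpine2 and Ccn2, the 15 largest and 15 smallest log2 ratios at 50 CPM or more, and members of the 26 lists. Equal bins of the keratin share could not be formed with most cells at 0, so classes by UMIs were used instead, chosen after seeing the data. Clusters are Leiden communities (scanpy 1.11.5, 2000 variable genes, 30 components, 15 neighbours, resolution 0.5), and cells marked by Scrublet were kept. Promoters are RefSeq, GRCm38.p6. Scaling factors by TMM came from edgeR 4.0.16. Other tools were Python 3.11.15, numpy 2.4.6, scipy 1.17.1 and R 4.3.3.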

Additional observations from a re-analysis of the deposited data

How the results depend on the processing

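Leaving out cells A to F, an alternative chosen after seeing the data, left 2 genes at least 2-fold higher instead of 18 and turned the log2 ratio of Ccn2 to -0.18, of Lamb1 to -0.029 and of Lama1 to -0.10, since these cells held most of those UMIs. Id3 became -0.61 and Serpine2 0.31, and the keratin level in the unused portion of the UMIs went from 161.65 to 21.3 CPM. Without cell A alone 9 genes were higher, with Id3 at 0.16 and Serpine2 at 0.30. Leaving out cells under 0.5% mitochondrial, which removes cell A, gave 8 genes, Id3 0.11, Serpine2 0.34 and Sct -0.024.

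The size of the group mattered as well. With the highest 5%, 59 genes were higher and 8 lower, with Id3 1.44, Serpine2 1.07 and Ccn2 3.08. The highest 20%, which are the 445 cells with a keratin UMI, gave 5 higher, Id3 1.35, Serpine2 0.38 and Ccn2 1.46. Cells with at least 2 keratin UMIs against cells with none, also added later, gave 71 higher, 20 lower, Id3 1.86 and Ccn2 3.21. Choosing after thinning to 5000 UMIs left 128 cells with a keratin UMI and gave 37 higher, 4 lower, Id3 2.93 and Ccn2 2.94. Choosing on a random portion gave 4 lower, Serpine2 0.32 and Ccn2 2.05. Krt8 alone gave 2 lower, Krt18 alone Id3 1.87, choice within 5 depth groups 0 lower, and the mean over cells Serpine2 0.45. A CPM minimum of 1 gave 76 higher and 17 lower, one of 50 gave 2 and 0, and one of 10 over all filtered cells together, added later, gave 5 higher. Where no cause is named, the cause was not tested.

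The other 61 of 101 alternatives for the counts, Id3, Serpine2, Ccn2 and the unused-portion level stayed within 1.5 times the count or within counting error. At 2 to 9 UMIs 27 of 28 for Gata2, Aqp3, Lgals3 and Zfp42 stayed within counting error, the exception being Lgals3 at 0.73 without its richest cell. The 2-fold call of Aqp3 was lost at 0.89 without its richest cell, at 0.91 with the wider cell filter and at 0.90 as a mean over cells, and that of Gata2 at 0.99 without cells under 0.5% mitochondrial. Of 828 values of named genes under alternatives 245 left the range of counting error. Of 500 list medians 147 left a range as wide as the counting interval of the list's summed UMIs, centred on the main median. That range is not the counting error of a median. No paired analysis was possible because each condition has 1 library. With most cells at 0 or 1 keratin UMI, depth limits which cells can be chosen, and free RNA and differences between cultures were not tested. Without the cells marked by Scrublet, which may have missed doublets, 18 genes were higher and 1 lower.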
